A study of Mus musculus with 8 samples.

Results

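The genes described here encode the constitutive proteasome and its regulators: the subunits of the core particle, the base and lid of the regulatory particle, the activators and inhibitor, and the assembly chaperones. They were chosen by name (Psma, Psmb, Psmc, Psmd, Psme, Psmf or Psmg with a number), leaving out the interferon-inducible Psmb8, Psmb9, Psmb10, Psme1 and Psme2 and names of pseudogenes, and by having 10 or more counts in at least 3 of 6 samples. Of 54 names of this form in a table of 55376 genes, 44 were members. The 10 others were the 5 interferon-inducible genes, 4 pseudogenes with 1 to 8 counts in all samples together, and Psmb11, a beta subunit of the thymus, with 2 counts in all. RNA came from mouse bone marrow-derived dendritic cells kept overnight with heat-inactivated Prevotella heparinolytica (PH) or P. melaninogenica (PM). There were 3 PH and 3 PM samples with the sample ids 1, 3 and 4, used below as replicate numbers, and untreated cells were not analysed here. Strain, genotype and age of the mice are not stated in the labels, nor whether an id is an animal or a culture, so each p-value covers only the scatter among these samples, and that scatter may be technical.

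The proteasome degrades proteins marked with ubiquitin. In its barrel-shaped core, alpha rings gate the entry and beta rings hold the catalytic sites, while a regulatory particle on either end binds the ubiquitin chain, removes it and unfolds the substrate. Its peptides feed MHC class I presentation, and in dendritic cells interferon-inducible beta subunits take the place of the constitutive catalytic ones.

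Total counts ranged from 11624367 in PH replicate 3 to 40233148 in PH replicate 4. The names of the columns for PH replicate 3 and PM replicate 1 each match 2 sequencing runs in the labels, and whether these columns hold 1 run or both is not given. No value within a run could therefore be computed. Gm42418, listed as a marker of RNA quality, was at 4816 TPM (counts scaled by gene length) in PH replicate 3. It was at 1779 and 1388 TPM in PH replicates 1 and 4, and at 1028 to 1392 TPM with PM. Of 5 such markers, 0 had an edgeR adjusted p under 0.05. The part of Gm42418 in the results was not tested. Dendritic cell markers were present in all samples, such as Cd74 (3313 to 4188 CPM, read counts relative to the TMM-scaled library size), Itgax (133 to 178 CPM) and Zbtb46 (59.4 to 84.4 CPM). Cd209a was at 0 in all 6 samples and Xcr1 was at 0.154 to 0.433 CPM, while the macrophage markers Adgre1 (416 to 635 CPM) and Csf1r (381 to 628 CPM) were also present. Summed macrophage markers were at 1069 to 1530 CPM with PH and 1217 to 1703 CPM with PM, and summed monocyte markers at 167 to 237 CPM with PH and 105 to 165 CPM with PM. Among markers of other cells or of cycling, Gzmb (edgeR adjusted p = 0.00282), Pdgfrb (0.00847) and Mki67 (0.0195) were lower with PM. In bulk samples fewer cells of a type and less RNA per cell cannot be told apart, and the part of these markers in the results was not tested.

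The transcripts of the constitutive proteasome were at much the same level with both bacteria, with none of the 44 members past the threshold when the sample id was ignored. All genes were tested by edgeR's quasi-likelihood test with Benjamini-Hochberg adjustment, where 337 of 14382 genes (2.34%) passed an adjusted p of 0.05, 101 higher (0.702%) and 236 lower (1.64%) with PM. All 44 members were tested, and 0 passed (adjusted p 0.112 to 0.998). At an unadjusted p under 0.05 there were 3 members, against 13.1% of all genes. DESeq2 called 1 member, Psma6, and 4.50% of all genes with an adjusted p, and edgeR with no low-count filter called 1, again Psma6, and 3.05% of all genes. The members' median log2 fold change of PM over PH was -0.01, beside 0.01 over all genes tested, and 17 lay above 0 and 27 below. With total-count scaling 23 lay above 0 and the median was 0.01, beside 0.03 over all genes. The split also moved with single libraries: 7 lay above 0 without PM replicate 1 (median -0.09), 26 without PH replicate 1 (median 0.01) and 12 without PH replicate 4 (median -0.04). The 95% interval of the fold change lay within 1.5-fold either way for 42 members, against 67.2% of all genes (74.6% with the block described next, where it was again 42). The 2 others, Psma8 and Psme2b, had few reads. The width of an interval also depends on the read count, and the share of all genes was not matched to the members for it.

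With the sample id as a block, which uses the pairing of PH and PM samples of 1 id, 5 members passed, 1 higher and 4 lower with PM. That is 11.4% of members, against 15.3% of all genes in the same fit (7.00% higher and 8.27% lower), while 8 members and 26.2% of all genes had an unadjusted p under 0.05. The 5 were the alpha subunits Psma6 and Psma5, the activator genes Psme4 and Psme2b, and the lid subunit Psmd8. Only Psma6 passed the blocked fit without each of the 3 ids in turn.

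**Figure D1:**
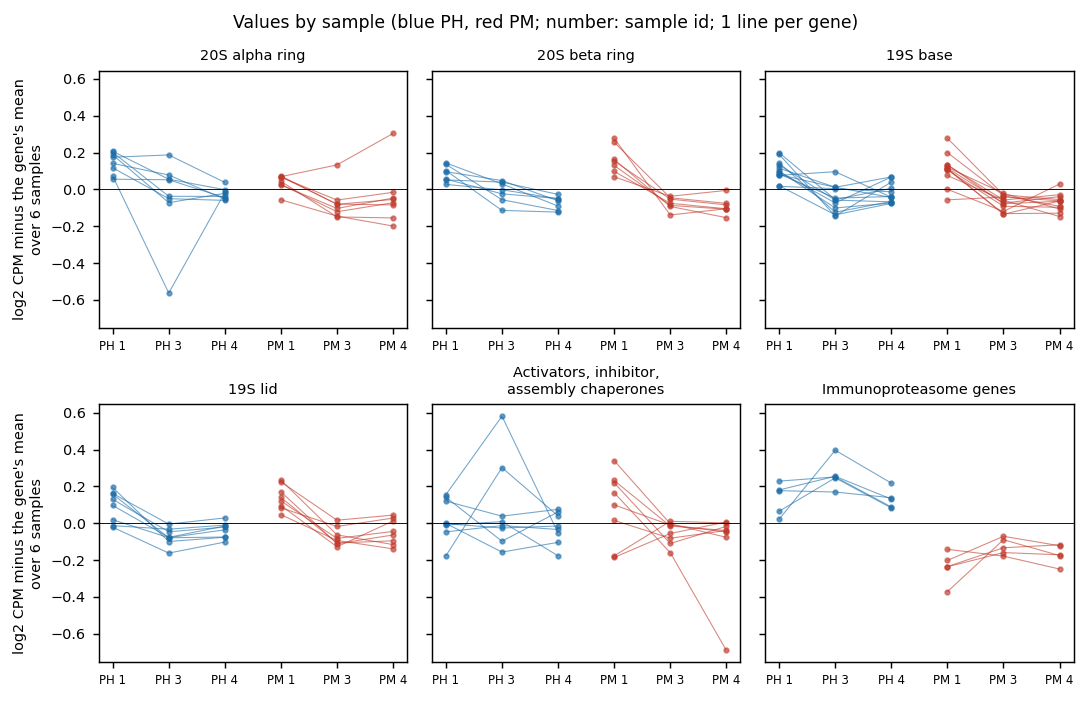
Each line is 1 gene, drawn as its log2 CPM in a sample minus its mean over the 6 samples, with PH in blue and PM in red, and the number under each column is the sample id. The constitutive subunits of the rings, base and lid were mostly high with id 1 under both bacteria, while the 5 interferon-inducible genes in the last panel were lower in each PM sample than in each PH sample. Psmc3ip is not drawn.

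Together the members took their largest share of counts in the samples of id 1, under both bacteria. Of all counts the members together took 0.567%, 0.530% and 0.527% with PH for ids 1, 3 and 4, and 0.575%, 0.522% and 0.525% with PM for the same ids. Both samples of id 1 were thus above the other 4, and the ranges of the bacteria overlapped. The sample of id 1 was the highest of its treatment under both bacteria for 32 of 44 members, against 24.3% of all genes. This held for 7 of 7 beta ring genes, 6 of 8 alpha ring genes, 16 of 20 regulatory particle genes, 2 of 4 activator and inhibitor genes and 1 of 4 assembly chaperones. It was a description of these samples and was not tested. Within a treatment the coefficient of variation was 7.71% for the median member and ranged from 1.87% for Psmd5 to 25.9% for Psme2b.

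In the alpha ring nearly all members lay below 0. Of its 8 genes, 7 had a log2 fold change below 0, and 5 were lower with PM in 3 of 3 pairs, against 22.0% of all genes. None passed without the block. Psma6 (chromosome 12, 55384222 to 55418454, plus strand, GRCm38), a structural subunit of the ring and the most abundant of its transcripts per length, was at 337, 339 and 306 CPM in PH replicates 1, 3 and 4 and at 287, 270 and 260 CPM in the PM samples of these ids. Each PM sample was below each PH sample. Its log2 fold change was -0.27 ± 0.07 (SE, n = 3 per group, 95% interval -0.43 to -0.11), with adjusted p = 0.112 by edgeR, and 5.6e-05 with the block. DESeq2 gave adjusted p = 0.0216, and edgeR gave 0.0405 with no low-count filter. Leaving out 1 sample without the block gave adjusted p 0.0516 to 0.362.

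Psma5 (chromosome 3, 108256926 to 108279974), another structural subunit of the ring, was at 154, 139 and 133 CPM with PH and 138, 120 and 120 CPM with PM. Its ranges overlapped, because the PM sample of id 1 was above the PH sample of id 4, but within each id PM was lower. The fold change on the log2 scale was -0.17 ± 0.08 SE, and edgeR gave adjusted p = 0.409, or 0.0100 with the block. The blocked call was lost without id 3 (adjusted p = 0.115) or id 4 (0.0676). Exons of Psma5 overlap those of another gene, 1700010K24Rik on the opposite strand, over 4.84% of their length. Psma3 (-0.11 ± 0.07), Psma4 (-0.09 ± 0.08), Psma2 (-0.07 ± 0.08), Psma7 (-0.04 ± 0.07) and Psma1 (-0.01 ± 0.07), the other subunits of the constitutive ring, did not pass either fit.

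Psma8 is an alpha subunit known from testis and a paralogue of Psma7. It was at 1.30 to 2.01 CPM with PH and 2.01 to 2.36 CPM with PM, with a log2 fold change of 0.27 ± 0.20 (SE) that did not pass. Its interval, -0.19 to 0.74, was among the widest of the members. The transcripts of Psma8 and Psma7 had 75.2% identical bases in their best local alignment of 761 bases, and Psma8 had 0.566% to 1.11% of the counts of Psma7.

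The sequences upstream of Psma6 and Psmd8 are shown because these genes were the 2 members with the smallest p. Their fold changes lay on opposite sides of 0. RefSeq (GRCm38.p6) lists 2 start sites for Psma6, whose upstream windows are chr12:55383972-55384221 and chr12:55398575-55398774, and 1 for Psmd8, with chr7:29180702-29180923 on the minus strand. Exon bases of the deposited annotation were cut from the ends of the latter 2 windows. Capitals mark a CCAAT box (CCAAT on either strand).
Psma6 first start: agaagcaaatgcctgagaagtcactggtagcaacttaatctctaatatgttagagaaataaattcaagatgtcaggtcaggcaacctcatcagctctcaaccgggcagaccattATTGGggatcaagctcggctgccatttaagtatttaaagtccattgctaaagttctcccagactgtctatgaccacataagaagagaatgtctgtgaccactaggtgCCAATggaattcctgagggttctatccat
Psma6 second start: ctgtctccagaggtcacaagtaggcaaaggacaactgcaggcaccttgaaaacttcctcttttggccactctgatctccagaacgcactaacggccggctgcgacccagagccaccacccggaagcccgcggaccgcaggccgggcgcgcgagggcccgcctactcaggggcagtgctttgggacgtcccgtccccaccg
Psmd8: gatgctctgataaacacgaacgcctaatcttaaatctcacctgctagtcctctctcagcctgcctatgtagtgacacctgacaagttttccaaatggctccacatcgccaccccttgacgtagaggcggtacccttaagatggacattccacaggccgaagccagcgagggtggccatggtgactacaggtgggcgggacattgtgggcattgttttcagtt

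The CCAAT boxes of the first Psma6 window began 136 and 29 bases before the start. No antioxidant response element (TGACNNNGC, the binding motif of the NRF1 and NRF2 factors) and no core of the interferon-stimulated response element (GAAA, 2 free bases, GAAA) was found in the 250 bases before any of the 3 starts. Both strands were searched, and matches were allowed to overlap. A match is no evidence of binding. Over windows of 250 bases before to 50 after the start, the table held 38 promoters of 36 members. The antioxidant element was in 15.8% of them (6 of 38), against 12.4% of all 32851 promoters, among them those of Psmb5, Psmb6 and Psme4. The CCAAT box was in 34.2%, against 37.4% of all. The interferon element core was in 10.5% (4 of 38: Psmb3, Psmd4, Psmd9 and Psmg4), against 3.44% of all, and in 1 of 6 promoters of the 5 interferon-inducible proteasome genes (Psme1).

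The beta ring lay closer to 0. Its 7 constitutive genes had log2 fold changes of -0.05 to 0.09, with a median of 0.01, and 0 passed either fit. None was lower with PM in 3 of 3 pairs, and 1, Psmb6, was higher in all 3, against 23.8% of all genes. Psmb6 (chromosome 11, 70525386 to 70527649), the subunit of the caspase-like activity, was at 341, 294 and 292 CPM with PH and 379, 308 and 301 CPM with PM. The ranges overlapped, since PH replicate 1 was above PM replicates 3 and 4 (0.09 ± 0.10 SE on the log2 scale, edgeR adjusted p = 0.781). Without PM replicate 1 the difference was -0.03. Psmb5 (chromosome 14, 54614119 to 54618022), which carries the chymotrypsin-like activity, was at 115, 100 and 96.4 CPM with PH and 127, 94.8 and 97.1 CPM with PM. Its difference of 0.03 ± 0.12 turned to -0.12 without PM replicate 1, the highest sample, and to -0.02 without PH replicate 4. Psmb7 (chromosome 2, 38588036 to 38644087), with the trypsin-like activity, was at 160, 155 and 144 CPM with PH and 160, 142 and 139 CPM with PM (-0.05 ± 0.08). Exons of Psmb7 overlap those of Nek6 on the opposite strand over 34.9% of their length, so its counts may miss or include reads of that gene. The non-catalytic Psmb1 (0.02), Psmb2 (-0.04), Psmb3 (-0.05) and Psmb4 (0.01) had intervals that all contained 0.

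Levels between genes can be compared only per length, here as TPM from the exon length in the deposited table. This length joins the exons of all transcripts of a gene, so long alternative ends lower the TPM. Psmb6 was the highest core gene at 851 ± 69.0 TPM with PH and 907 ± 97.8 TPM with PM (SD, n = 3). Psma6 followed at 627 ± 26.9 and 521 ± 15.2 TPM, Psma7 at 418 ± 10.4 and 406 ± 14.7, and Psmb4 at 395 ± 11.0 and 398 ± 27.4 TPM. Psma7 and Psmb4 did not differ beyond their spread with PM. Psmb5 (254 ± 20.7 TPM with PH), Psma5 (252 ± 16.2), Psmb3 (252 ± 17.0) and Psmb2 (261 ± 3.82) had overlapping ranges with PH. The lowest constitutive subunits were Psmb1 at 104 ± 1.38 TPM and Psma3 at 87.1 ± 4.68 TPM, while Psma8 was at 2.26 ± 0.504 TPM. Psmb1 and Psma3 have long joined exons, 3427 and 2846 bases against 798 for Psmb6, so their low rank may come from the length used. In CPM both were above Psmb5 (means with PH of 162 and 113 against 104), but CPM is not divided by length and cannot rank these genes. In the assembled core each ring holds its constitutive subunits in equal number.

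**Figure D2:**
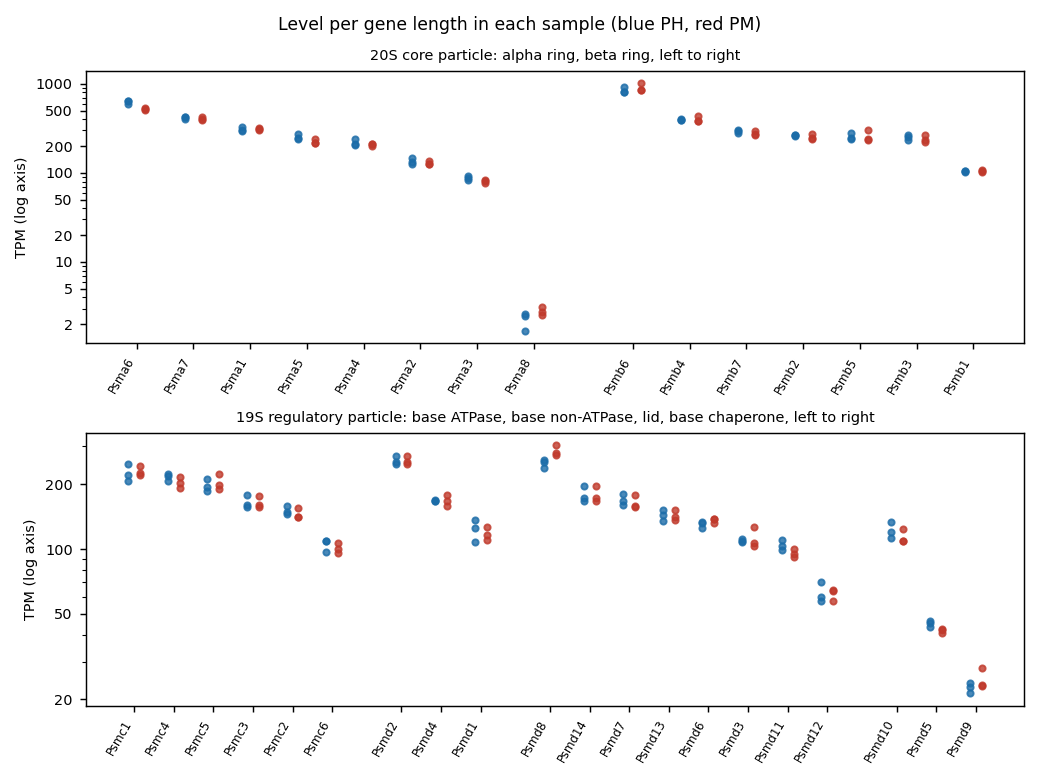
Each point is the TPM of 1 sample on a log axis, PH in blue and PM in red, for the core particle (above) and the regulatory particle (below). Psmb6 and Psma6 lead their rings, Psma8 lies far below, and for most genes the points of the bacteria overlap.

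Summed over the alpha ring, TPM were 2148, 2033 and 1972 in PH replicates 1, 3 and 4 and 1942, 1837 and 1853 in the PM samples of these ids, so that each PM sample was below each PH sample. Summed over the beta ring, they were 2555, 2346 and 2320 with PH and 2698, 2331 and 2306 with PM, with overlapping ranges. The ratio of the alpha to the beta sum was 0.841, 0.867 and 0.850 with PH and 0.720, 0.788 and 0.804 with PM. Psma6 supplied 27.3% to 31.8% of the alpha sum. The alpha sum without Psma6 was 1510, 1386 and 1376 TPM with PH and 1406, 1315 and 1348 TPM with PM, which overlapped. Without Psma6 the ratio was 0.591, 0.591 and 0.593 with PH and 0.521, 0.564 and 0.585 with PM, still with no overlap. With Psma6 and Psmb6 both left out it was 0.929, 0.900 and 0.916 with PH and 0.838, 0.892 and 0.922 with PM, which overlapped. These 2 genes were left out after their values were seen.

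The regulatory particle had 20 members, of which 0 passed without the block and 1, Psmd8, with it (5%), against 2.34% and 15.3% of all genes. Its median log2 fold change was -0.01, and all 20 had intervals within 1.5-fold. The 6 ATPases of the base, which unfold the substrate, lay between -0.08 (Psmc4) and 0.05 (Psmc5). Psmc4 was at 145, 147 and 133 CPM with PH and 145, 132 and 124 CPM with PM, and Psmc5 was at 128, 112 and 114 CPM with PH and 138, 117 and 112 CPM with PM. In both the values of the bacteria overlapped. Psmc1 (0.03), Psmc2 (-0.05), Psmc3 (-0.01) and Psmc6 (-0.06) lay between them. Per length, Psmc1 was the highest ATPase at 226 ± 21.0 TPM with PH and Psmc6 the lowest at 105 ± 6.92 TPM.

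The non-ATPase subunits of the base hold docking sites for ubiquitin and its shuttles. Psmd2 (chromosome 16, 20651652 to 20663414), a docking subunit, was at 367, 335 and 337 CPM with PH and 375, 329 and 337 CPM with PM (0.00 ± 0.08 SE, with a 95% interval from -0.17 to 0.17). The ubiquitin receptor Psmd4 (chromosome 3, 95032694 to 95042614) was at 142, 141 and 139 CPM with PH and 152, 138 and 130 CPM with PM (-0.00 ± 0.07, interval -0.16 to 0.15). The PM values spread around the PH values in both genes. The scaffold Psmd1 had a log2 fold change of -0.06 ± 0.10.

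In the lid, which cuts ubiquitin off the substrate, Psmd8 stood at the upper end. Psmd8 (chromosome 7, 29174188 to 29180701, minus strand), a lid subunit, was at 263, 239 and 249 CPM in PH replicates 1, 3 and 4 and at 312, 270 and 276 CPM in the PM samples of these ids. Each PM sample was above each PH sample. The log2 fold change was 0.19 ± 0.08 (SE, 95% interval 0.02 to 0.36), with adjusted p = 0.323 by edgeR and 0.00320 with the block. The blocked call was lost without id 3 (adjusted p = 0.0537). Psmd14 (chromosome 2, 61711694 to 61800376), the deubiquitinating enzyme of the lid, was at 139, 118 and 118 CPM with PH and 140, 115 and 119 CPM with PM, which overlapped (-0.00 ± 0.10). Psmd11 lay lowest in the lid, at 150, 134 and 137 CPM with PH and 139, 126 and 122 CPM with PM (-0.13 ± 0.07, adjusted p = 0.528, or 0.0743 with the block). It was lower in 3 of 3 pairs. In the blocked fit without id 1, Psmd11 and the ATPase gene Psmc4 passed as well. The other lid genes Psmd3 (0.04), Psmd6 (0.06), Psmd7 (-0.04), Psmd12 (-0.02) and Psmd13 (-0.00) did not pass.

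The chaperones that assemble the base went to both sides of 0 and did not pass. Psmd5 was at 91.7, 87.4 and 90.9 CPM with PH and 83.4, 84.3 and 83.1 CPM with PM, so that the groups did not overlap, as for 19.4% of all genes. Its log2 fold change was -0.11 ± 0.05 (SE, adjusted p = 0.439, or 0.165 with the block). Psmd9 was higher with PM in 3 of 3 pairs, at 28.3, 25.4 and 26.5 CPM with PH and 33.9, 27.4 and 26.9 CPM with PM (0.13 ± 0.10, adjusted p = 0.666). Psmd10, also known as gankyrin, had a difference of -0.10 ± 0.09. Of all 44 members, 4 had groups that did not overlap, namely Psma6, Psme4 and Psmd5, lower with PM, and Psmd8, higher.

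Among the activators, Psme4 (chromosome 11, 30771726 to 30880361), which encodes the nuclear activator PA200, was at 122, 115 and 118 CPM with PH and 98.7, 108 and 113 CPM with PM. Each PM sample was below each PH sample, by the widest margin for id 1. The log2 fold change was -0.15 ± 0.07 (SE, 95% interval -0.30 to -0.0040), with adjusted p = 0.365 by edgeR and 0.0403 with the block. The blocked call was lost without id 1 (adjusted p = 0.257) or id 3 (0.0756). Psme3 (chromosome 11, 101316213 to 101323537), which encodes the nuclear activator PA28-gamma, was at 125, 123 and 124 CPM with PH and 134, 124 and 121 CPM with PM (0.03 ± 0.06, adjusted p = 0.894), and the PM values lay on both sides of the PH values. Psmf1, the inhibitor PI31, was at 44.0 to 52.0 CPM with PH and 44.5 to 47.6 CPM with PM (-0.08 ± 0.07).

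Psme2b (chromosome 11, 48945354 to 48946190) is an intronless copy of the interferon-inducible Psme2. It was at 4.89, 6.56 and 4.23 CPM with PH and 4.92, 3.93 and 2.72 CPM with PM, lower in 2 of 3 pairs (-0.42 ± 0.24 SE on the log2 scale, edgeR adjusted p = 0.523, or 0.0355 with the block). The blocked call was lost without id 3 (adjusted p = 0.272) or id 4 (0.290). Transcripts of both genes had 99.4% identical bases over 794 aligned bases, and Psme2b had 0.544% to 1.03% of the counts of Psme2, so its value is uncertain where reads could be assigned to either gene.

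The 4 chaperones that build the alpha ring (Psmg1 to Psmg4) did not pass either fit. Per length Psmg4 was at 107 ± 17.9 TPM with PH, and the 3 others were at 24.3 to 26.8 TPM (means of 3 samples). Psmg1 was at 13.5, 12.1 and 12.5 CPM with PH and 17.1, 13.5 and 12.8 CPM with PM (0.17 ± 0.12 SE, adjusted p = 0.620), higher in 3 of 3 pairs. Psmg4 was at 22.7, 31.7 and 26.4 CPM with PH and 22.7, 25.9 and 25.7 CPM with PM (-0.11 ± 0.12). Without PH replicate 3, the highest sample, the difference was 0.0042 on the log2 scale. Psmg2 and Psmg3 had differences of 0.07 ± 0.10 and 0.12 ± 0.11. Exons of Psmg3 overlap Gm26938 on the same strand over 26.8% of their length. Psmc3ip, which the name rule takes in although it encodes a factor of meiotic recombination, was at 2.34 to 3.45 CPM with PH and 2.73 to 3.44 CPM with PM (0.11 ± 0.20).

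**Figure D3:**
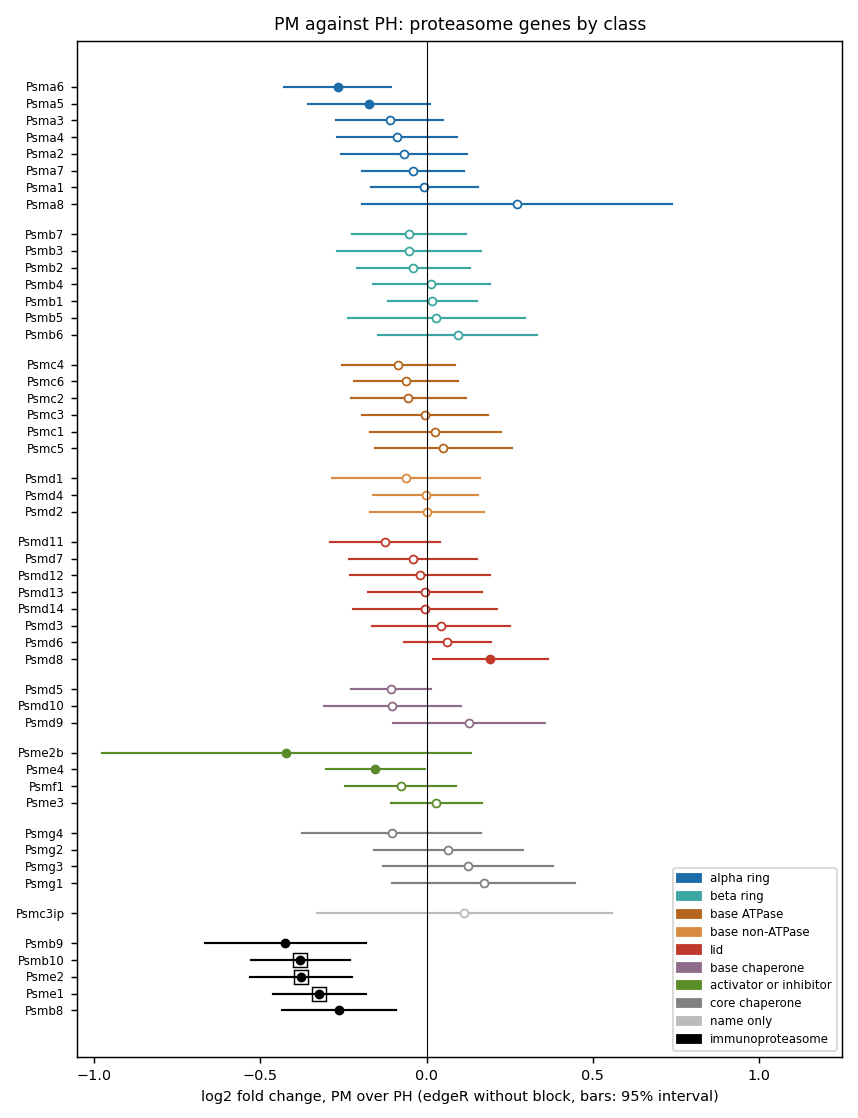
Each point is the log2 fold change of PM over PH from edgeR without the block, with its 95% interval, coloured by class. Filled points passed with the sample id as a block and open points did not, and an outer square marks genes that passed without the block, which was so for 3 interferon-inducible genes and 0 of 44 members.

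The 5 genes left out by the rule showed another pattern. Of these interferon-inducible genes, 3 fell with PM by edgeR without the block and all 5 with it, against 1.64% and 8.27% of all genes. Each PM sample was below each PH sample for all 5, where groups did not overlap for 19.4% of all genes in either direction. Psmb10 was at 144, 146 and 130 CPM with PH and 111, 108 and 103 CPM with PM (-0.38 ± 0.07 SE on the log2 scale, edgeR adjusted p = 0.0208). Psme2 and Psme1, which form the cytosolic activator PA28, had -0.38 ± 0.07 (adjusted p = 0.0232) and -0.32 ± 0.06 (0.0328). Psmb9 (-0.42 ± 0.11, adjusted p = 0.0911, or 2.9e-08 with the block) and Psmb8 (-0.26 ± 0.08, 0.140, or 7.5e-05 with the block) did not pass by edgeR without it. DESeq2, also without the block, gave adjusted p = 0.00967 for Psmb9 and 0.0300 for Psmb8. By edgeR with no low-count filter they had adjusted p = 1.7e-05 and 0.0504. Leaving out 1 sample without the block gave adjusted p of 0.0154 to 0.121 for Psmb10, 0.0279 to 0.116 for Psme2 and 0.0345 to 0.148 for Psme1. Psmb10 lost its call when any sample but PH replicate 4 or PM replicate 1 was left out, and Psme1 and Psme2 when any sample but PM replicate 1 was. With total-count scaling Psme1 had adjusted p = 0.0658.

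Each catalytic subunit was set against its exchange partner as a ratio of counts per kb within a sample. Psmb8 to Psmb5 was 2.19, 2.84 and 2.64 in PH replicates 1, 3 and 4 and 1.65, 2.41 and 2.28 in the PM samples of these ids. Psmb9 to Psmb6 was 0.270, 0.406 and 0.361 with PH and 0.184, 0.276 and 0.266 with PM. Psmb10 to Psmb7 was 0.793, 0.834 and 0.803 with PH and 0.613, 0.674 and 0.655 with PM. Each ratio was lower with PM in 3 of 3 pairs, and that of Psmb10 to Psmb7 was so with no overlap between the bacteria. The 3 differences in log2 ratio, PM minus PH, were -0.29, -0.51 and -0.32. An exact two-sided permutation test over samples gave p = 0.3, 0.2 and 0.1 (adjusted p = 0.3 for each of the 3), where 0.1 is the smallest p that 3 against 3 allows. The sign-flip test within ids gave its smallest possible p of 0.25 for each. Exons of Psmb9 overlap Tap1 on the opposite strand over 15.7% of their length and those of Psmb8 overlap Gm20496 on the opposite strand over 11.4%, and the strand setting of the counting is not given.

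**Figure D4:**
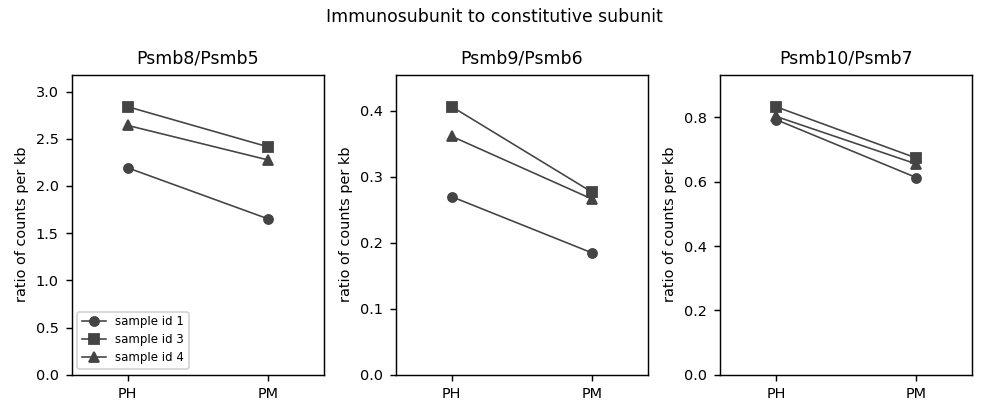
Lines join the PH and PM sample of 1 sample id, and the axis gives the ratio of counts per kb of an interferon-inducible beta subunit to the constitutive subunit whose place it takes, from 0. All 9 lines go down from PH to PM, and under each bacterium the id 1 sample has the lowest ratio.

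None of the pathway genes outside the name rule passed without the block either. Of 31 such genes, which cover further subunits, associated factors, the NRF1 route, ubiquitin shuttles and ubiquitin genes, 0 passed without the block and 6 did with it (19.4%, against 15.3% of all genes), 3 higher and 3 lower, with a median log2 fold change of -0.0030. At an unadjusted p under 0.05 there were 5, against 13.1% of all genes, and the groups did not overlap for 8, against 19.4%. Nfe2l1, which encodes NRF1, the factor that drives proteasome genes when the proteasome is impaired, was at 403, 434 and 426 CPM with PH and 402, 445 and 429 CPM with PM (0.02 ± 0.07, adjusted p = 0.953). The values of each id were close to equal. With the block, Pomp, the chaperone that matures the core particle, was lower with PM, at 194, 177 and 177 CPM with PH and 164, 157 and 156 CPM with PM (-0.20 ± 0.06, adjusted p = 0.189, or 0.00208 with the block). Its groups did not overlap. The proteasome-bound scaffold gene Ecpas (-0.18) and the ubiquitin-activating enzyme gene Uba1 (-0.14) were lower with the block, and Zfand2a (0.23) and Zfand5 (0.14), whose proteins bind the proteasome, were higher. Pomp and Zfand2a passed the blocked fit without each id in turn, while Ecpas lost the call without id 4 (adjusted p = 0.130), and Uba1 and Zfand5 without id 3 or 4 (0.162 to 0.451).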

How the data were processed

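The deposited table gives raw read counts per gene, which the authors left unnormalized, with exon coordinates and gene length. The submitters' processing notes name Trimmomatic, STAR 2.5.3a, featureCounts 1.6.4 and GRCm38. For annotation release, strand setting and multiply mapped reads, the sources used here give nothing. The table has 6 count columns for 8 listed libraries, and each column was used as 1 sample. After filterByExpr (minimum count 10) and TMM scaling, edgeR 4.0.16 in R 4.3.3 was run with glmQLFit and glmQLFTest without covariates, and Benjamini-Hochberg adjustment ran over 14382 genes. The SE and 95% interval come from the F value and its degrees of freedom. Alternatives were RLE size factors, total counts, 2 other filters, DESeq2 1.42.0, the sample id as a block, and leaving samples out. In counts simulated without an id effect, with 14216 genes tested, 16% of 1.25-fold, 60% of 1.5-fold and 79.6% of 2-fold changes were recovered. With a simulated id effect and the block, 20%, 62% and 91.7% were recovered. The changed genes were drawn at random from all expression levels, so these rates are not those of the members.

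Sample ids were treated as pairs only in the blocked fits, the counts of pairs and the sign-flip test, while the fit without the block ignored them. Deviations from treatment means correlated at 0.44, 0.32 and 0.24 for ids 1, 3 and 4 and at -0.35 to 0.07 for different ids. These correlations come from the same counts. Centring on 3 samples ties them to each other, so they do not show independently that the ids are pairs. Each pair of columns differed beyond sampling noise (chi-square per degree of freedom 4.66 or more). The genes given in full are the 3 members with the smallest p, the extremes of each class, the catalytic subunits, Psmd2, Psmd4, Psmd14, the 5 interferon-inducible genes and Nfe2l1. Genes called only with the block were added after their values were seen. Members, lists and this rule were chosen with earlier results of these data known. Promoters come from RefSeq, where 36 of 44 members matched. Values of 2 genes outside the members are not reported here.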

Additional observations from a re-analysis of the deposited data

How the results depend on the processing

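With the sample id as a block, which uses the pairing, calls over all genes were 1007 higher and 1190 lower with PM, against 101 and 236 without it. No low-count filter gave 349 and 497, and DESeq2 gave 202 and 382. Without 1 sample they ranged from 26 to 111 higher and 107 to 306 lower, and with the block and without id 1, 3 or 4 they were 868, 644 and 696 higher and 1277, 936 and 833 lower. Of the members, 1 was called lower, in the core particle, with no low-count filter and with DESeq2. The block gave 1 higher (in the regulatory particle) and 4 lower (2 in the core particle, 2 activators). Without 1 id the block gave 0 to 1 higher and 1 to 5 lower (1 to 2 in the core particle, 0 to 2 in the regulatory particle, 0 to 1 activators). Leaving out 1 sample without the block called 0 members. Over 26 named genes, 319 of 390 values kept direction and side of the threshold, 15 lost and 27 gained the call, and 29 changed sign. The changes of sign were in genes near 0 and the cause was not tested. Psmd2 was at -0.0036 with RLE size factors, -0.0046 with the 1 CPM filter and -0.0039 with DESeq2. Psmd4 was at 0.020 with total counts and 0.00085 with no low-count filter, and Psmd14 at 0.020 with total counts.
Without 1 sample, the log2 fold change ranged from -0.023 to 0.060 for Psme3, from -0.050 to 0.109 for Psmc5, from -0.066 to 0.039 for Psmd2, from -0.149 to 0.013 for Psmd1, from -0.028 to 0.163 for Psmb6, from -0.220 to 0.0042 for Psmg4, from -0.123 to 0.104 for Psmb5, from -0.074 to 0.048 for Psmd4, from -0.102 to 0.072 for Psmd14 and from -0.022 to 0.047 for Nfe2l1.
With the block and without 1 id, it ranged from -0.021 to 0.060 for Psme3, from -0.023 to 0.009 for Psmd2, from -0.041 to 0.068 for Psmb5, from -0.073 to 0.041 for Psmd4, from -0.018 to 0.0057 for Psmd14 and from -0.0021 to 0.017 for Nfe2l1.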
